A study of Mus musculus with 10 samples.

Results

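Matricellular proteins are secreted into the matrix around cells, where they act mainly as signals and adaptors and less as load-bearing fibres. The 10 genes described here, Thbs1, Thbs2, Thbs3, Thbs4, Tnc, Tnxb, Postn, Spp1, Sparc and Fn1, were taken by gene name among the 35527 gene names of the arrays. They encode thrombospondins, tenascins, periostin, osteopontin, SPARC and fibronectin, the last of which is a structural glycoprotein that binds many of the others. All 10 had a probe and all 10 passed the filter on dim signal, with 13 probes in total, 1 each for 7 genes and 2 each for Thbs3, Tnc and Sparc. Expression was profiled in infrarenal aortas of male C57BL/6J mice, 10 weeks old, harvested 7 days after surgery. In the PPE group (5 mice) the aorta was infused for 5 min at 100 mmHg with saline containing porcine pancreatic elastase at 1.5 U per mL, which digests elastin and leads to an aneurysm of the abdominal aorta (AAA). The 5 sham mice received the same infusion with saline alone. On each array, RNA of 1 aorta was labelled red and set against a green-labelled universal reference, a mixture of RNA from mouse cell lines.

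Thrombospondins fall into a subgroup that forms trimers and inhibits vessel growth (Thbs1 and Thbs2) and a subgroup that forms pentamers (Thbs3, Thbs4 and the related Comp). Thbs1 also activates latent TGF-β and signals through CD47 and CD36. Tenascins are large proteins with fibronectin-like repeats, of which Tnc is known to appear in injured and remodelling tissue, and Tnxb supports collagen fibrils in resting connective tissue. Osteopontin (Spp1) is a phosphoprotein made by macrophages and other cells, and it binds integrins and CD44. In arteries, these proteins are known for their part in smooth muscle cell migration, macrophage adhesion and matrix assembly after injury.

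Of the 10 genes, 3 were higher in PPE than in sham and none was lower at an adjusted p under 0.01, with p-values adjusted over all 22520 names tested. Among all names, 13.8% were called higher and 9.96% lower. Thbs1 rose by 3.22 on the log2 scale (9.30-fold), Thbs2 by 2.44 (5.42-fold) and Spp1 by 1.70 (3.24-fold). The sham and PPE arrays did not overlap for these 3 genes and overlapped for the other 7; groups that did not overlap were seen for 25.5% of all names. At an unadjusted p under 0.05, 4 of the 10 genes differed, the fourth being Thbs4. The median change of the 10 genes was 0.19 and that of all names was 0.02. Higher calls made up 58.1% of all calls, and 98.1% where arrays were centred on their median in place of loess, a setting that moved the median of all names to 0.41.

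The probes are 60 bases long and report only a short part of each transcript. Probes of Thbs2, Spp1 and the tenascins, known to lie in protein-coding sequence, are printed here, 5′ to 3′ on the transcript's strand. They show which part of each transcript was measured. Thbs2 and Spp1 each had a single probe, so no other part of either was measured. The Thbs2 probe matched chr17:14804526-14805789 on the minus strand (mm9, as the array files give it), a span of 1264 bases for 60 bases of probe, so that it crossed an intron and reports spliced RNA near the end of the coding sequence. The Spp1 probe lay at chr5:104868502-104868561 on the plus strand, from base 524 of its transcript, in the part that encodes the integrin-binding stretch beside the thrombin cleavage site. The first Tnc probe matched chr4:63674248-63675011, minus strand, across another intron, and the second chr4:63643728-63643787, which is 2278 bases further along the transcript. The Tnxb probe lay at chr17:34856502-34856561, plus strand.
Thbs2: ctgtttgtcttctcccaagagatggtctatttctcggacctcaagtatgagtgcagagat
Spp1: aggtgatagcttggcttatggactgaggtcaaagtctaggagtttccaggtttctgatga
Tnc, first probe: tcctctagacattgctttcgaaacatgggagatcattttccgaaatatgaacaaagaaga
Tnc, second probe: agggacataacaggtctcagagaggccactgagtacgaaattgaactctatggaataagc
Tnxb: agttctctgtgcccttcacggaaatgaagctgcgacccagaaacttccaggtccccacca

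Each value below is the log2 ratio of aortic over reference signal, positive where the aorta gave more signal. A ratio depends on the reference's own content of that RNA, so ratios of different genes are not compared as levels. Signals came from whole aortic segments, and fewer cells of a type cannot be told apart from less RNA per cell. Samples came from separate mice. Adjusted p-values of single genes are those of limma.

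Thbs1, the thrombospondin that activates latent TGF-β, read −0.96, −1.27, −1.46, −1.96 and −1.08 in sham replicates 1 to 5. In PPE replicates 1 to 5 it read 2.18, 0.74, 2.72, 2.57 and 1.15. Every PPE array lay above every sham array, and PPE 2 and PPE 5 were the closest to sham. The means were −1.35 ± 0.39 (SD, n = 5) in sham and 1.87 ± 0.88 (SD, n = 5) in PPE, a change of 3.22 (SE 0.37, 95% confidence interval 2.40 to 4.03, adjusted p = 5.14e-05 by limma). Within slide 1, which held sham 1, PPE 1 and PPE 2 and was scanned on another day than the other slides, the difference was 2.42. Within slide 2, which held sham 2, sham 3, PPE 3 and PPE 4, it was 4.01. Thbs1 was represented by a single probe, at chr2:117952585-117952644 (mm9), and its signal was above background on all 10 arrays in both channels. By size of change in either direction, Thbs1 stood at the 99.3 percentile of all names tested.

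Thbs2, an inhibitor of vessel growth that also affects collagen fibril shape, read −1.75, −1.28, −1.54, −1.33 and −1.56 in sham replicates 1 to 5. It read 0.94, 0.56, 1.43, 0.66 and 1.14 in PPE replicates 1 to 5. The arrays within each group lay closer together than for Thbs1, with SDs of 0.19 in sham and 0.35 in PPE. The change was 2.44 (SE 0.17, 95% confidence interval 2.06 to 2.81, adjusted p = 1.64e-06 by limma), and it was 2.50 within slide 1 and 2.45 within slide 2. PPE 2 was the lowest PPE array for Thbs1, Thbs2 and Spp1 alike. PPE 3 was the highest for Thbs1 and Thbs2.

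Thbs3, which belongs to the pentameric subgroup, read between 2.41 and 2.96 in sham and between 2.40 and 3.20 in PPE. The ranges overlapped almost fully. Its mean was 2.78 ± 0.22 (SD, n = 5) in sham and 2.85 ± 0.29 (SD, n = 5) in PPE, a difference of 0.07 (95% confidence interval −0.28 to 0.42, adjusted p = 0.775 by limma). A further Thbs3 probe shares 45 of its 60 bases with the first, so that it is no separate measurement of the transcript, and it gave a difference of 0.24 (adjusted p = 0.343 in a limma fit over probes).

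Thbs4, the pentameric thrombospondin known from tendon, muscle and nerve, read 2.61, 1.39, 2.68, 4.18 and 0.53 in sham replicates 1 to 5. It read 3.99, 5.04, 3.56, 2.82 and 4.64 in PPE replicates 1 to 5. Sham 4 lay above 3 of the PPE arrays, so the groups overlapped. The difference was 1.73 (SE 0.62, 95% confidence interval 0.36 to 3.09), which did not pass the threshold (adjusted p = 0.0503 by limma). The spread in sham, an SD of 1.39, was the widest of any of the 10 genes in either group. The reference signal of this probe was well above background on 1 of 5 sham arrays and on 5 of 5 PPE arrays, and the aortic signal on 4 of 5 sham arrays and 5 of 5 PPE arrays. The aortic channel alone, as processed by the scanner software, had a median intensity of 644.9 in sham (79.8 to 1567) and 2168 in PPE (817.4 to 5348). With the scanner's own log ratio in place of the loess values, the difference was −0.03 (adjusted p = 0.979 by limma), so no direction is given for Thbs4. The mean log2 ratio of 7 skeletal muscle genes read 3.63, 1.48, 2.73, 4.68 and 1.87 in sham replicates 1 to 5 and 2.13, 3.72, 0.745, 2.38 and 1.67 in PPE replicates 1 to 5. In sham, the array highest for Thbs4 (sham 4) and the pair that was lowest (sham 2 and 5) were so for the muscle genes too. In PPE, PPE 2 was the highest for both, but PPE 4, the lowest for Thbs4, was next to the highest for the muscle genes, and PPE 5 was high for Thbs4 and low for the muscle genes. The part of muscle tissue in the Thbs4 values was not tested.

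**Figure D1:**
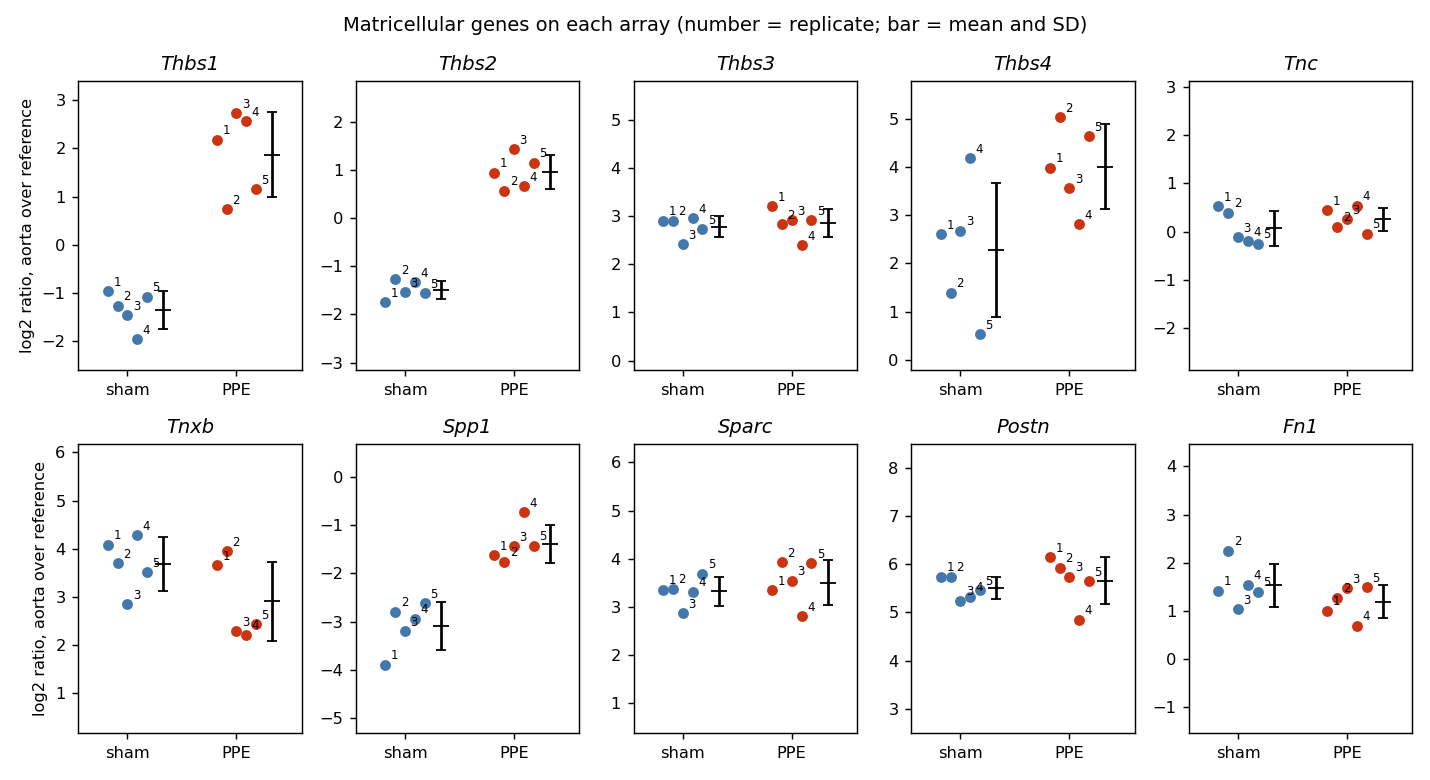
Log2 ratio of aorta over reference (y axis, every panel spanning the same length of scale) for the 10 genes on each array, with sham in blue and PPE in red, replicate numbers beside the points, and the mean and SD as bars (n = 5 per group). Thbs1, Thbs2 and Spp1 separate the groups fully, with Thbs1 at −1.96 to −0.96 in sham and 0.74 to 2.72 in PPE, while the points of the other genes overlap.

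Whether members of one family changed by unequal amounts was asked on the per-array difference of their log2 ratios, with an exact two-sided permutation test over all relabellings of the arrays and adjustment over 7 pairs. The smallest p that this design allows is 0.00794. Thbs1 changed by 3.15 more than Thbs3 (exact p = 0.00794, adjusted p = 0.0278), and Thbs2 by 2.37 more than Thbs3 (exact p = 0.00794, adjusted p = 0.0278). Both differences stood when any 1 array was left out, with an adjusted p of at most 0.0278 by the exact test. Thbs1 and Thbs2 differed from each other by 0.78 in their change (exact p = 0.103, adjusted p = 0.144), which the spread between arrays does not separate from 0. Among the trimeric pair and Thbs4, the differences were 1.49 for Thbs1 (exact p = 0.23, adjusted p = 0.268) and 0.71 for Thbs2 (exact p = 0.373, adjusted p = 0.373). With the scanner's log ratio they were 3.28 and 2.49 (adjusted p = 0.0556 each by the exact test), and without sham 4 they were 0.86 and 0.27. Thbs3 changed by −1.66 relative to Thbs4 (exact p = 0.0556, adjusted p = 0.13), and this value passed an adjusted p under 0.05 without sham 4, at −2.09 (adjusted p = 0.0185 by the exact test). The dim reference signal of Thbs4 touches each of these last 3 pairs.

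**Figure D2:**
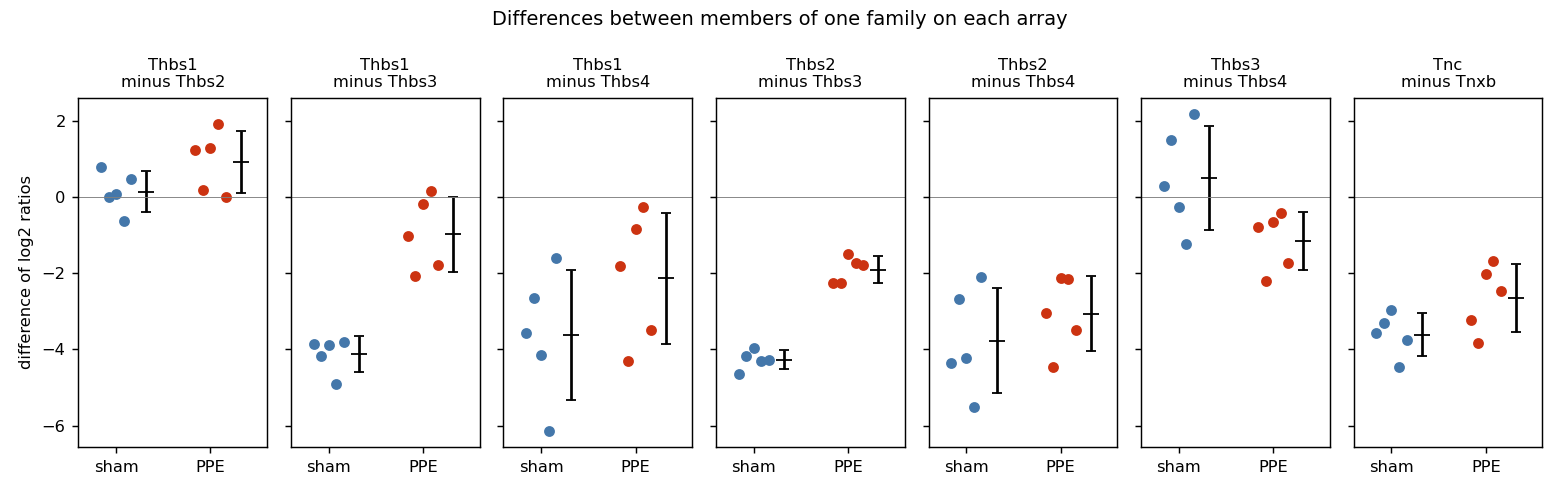
Per-array difference of the log2 ratios of 2 members of one family (y axis), for 6 thrombospondin pairs and the tenascin pair, sham in blue and PPE in red, with mean and SD (n = 5 per group). The Thbs1 minus Thbs3 difference moved from −4.13 in sham to −0.98 in PPE and the Thbs2 minus Thbs3 difference from −4.27 to −1.91 with no overlap. The pairs with Thbs4 overlap, Thbs3 minus Thbs4 only through sham 4, at −1.22.

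Tnc, the tenascin known from injured tissue, read 0.52, 0.39, −0.12, −0.20 and −0.25 in sham replicates 1 to 5 and 0.44, 0.10, 0.26, 0.54 and −0.05 in PPE replicates 1 to 5. The arrays of both groups lay around 0 and overlapped. The difference was 0.19 (95% confidence interval −0.21 to 0.58, adjusted p = 0.473 by limma), and the aortic signal was above background on 4 of 5 sham and 5 of 5 PPE arrays. The upstream Tnc probe, above background on 3 of 5 sham and 5 of 5 PPE arrays, gave −0.12 (adjusted p = 0.682 in the fit over probes). The probes thus differed in sign, and neither passed the test. Tnxb, the tenascin of resting connective tissue, read 4.08, 3.70, 2.85, 4.28 and 3.51 in sham replicates 1 to 5 and 3.66, 3.95, 2.29, 2.22 and 2.43 in PPE replicates 1 to 5. PPE 3, 4 and 5 lay below every sham array, and PPE 1 and 2 lay within the sham range. The difference of −0.78 (SE 0.38, 95% confidence interval −1.62 to 0.06) did not pass the test (adjusted p = 0.144 by limma). It was −0.28 within slide 1 and −1.03 within slide 2. The Tnc change exceeded that of Tnxb by 0.96 (exact permutation p = 0.0873, adjusted p = 0.144).

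Spp1, which encodes osteopontin, read −3.89, −2.79, −3.20, −2.94 and −2.62 in sham replicates 1 to 5. It read −1.62, −1.76, −1.44, −0.73 and −1.43 in PPE replicates 1 to 5. All PPE arrays lay above all sham arrays, with sham 1 the lowest and PPE 4 the highest. The change was 1.70 (SE 0.25, 95% confidence interval 1.14 to 2.25, adjusted p = 0.000302 by limma), and it was 2.20 within slide 1 and 1.92 within slide 2. With median centring the change was 2.43 and missed the threshold (adjusted p = 0.0126 by limma). In both groups the ratio stayed below 0, so that the aorta gave less Spp1 signal than the reference, in which the median processed intensity was 83150 on sham arrays and 70820 on PPE arrays.

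The remaining genes, which encode proteins that bind collagen or assemble matrix, did not pass the test. Sparc, a collagen-binding calcium protein, read between 2.87 and 3.69 in sham and between 2.81 and 3.93 in PPE, with a difference of 0.18 (95% confidence interval −0.30 to 0.67, adjusted p = 0.573 by limma). Its other probe, 937 bases further along the transcript, differed by 0.66 (adjusted p = 0.0731 in the fit over probes), so neither probe passed the test although their sizes were unequal. Postn, periostin, a fasciclin-domain protein that supports collagen crosslinking, read between 5.24 and 5.74 in sham and between 4.84 and 6.15 in PPE. Its difference was 0.16 (95% confidence interval −0.33 to 0.64, adjusted p = 0.633 by limma). Fn1, fibronectin, read between 1.04 and 2.25 in sham and between 0.69 and 1.49 in PPE, a difference of −0.34 (95% confidence interval −0.83 to 0.15, adjusted p = 0.279 by limma) that read 0.64 with median centring. Median centring also gave larger values for Sparc (1.25, adjusted p = 0.242 by limma) and Postn (0.80, adjusted p = 0.489 by limma), neither past the threshold. For Thbs3, Tnxb, Postn, Sparc and Fn1 the lowest sham array was sham 3 and the lowest PPE array was PPE 4, and PPE 4 was also the highest PPE array for Spp1 and Tnc. Both of these arrays were on slide 2.

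**Figure D3:**
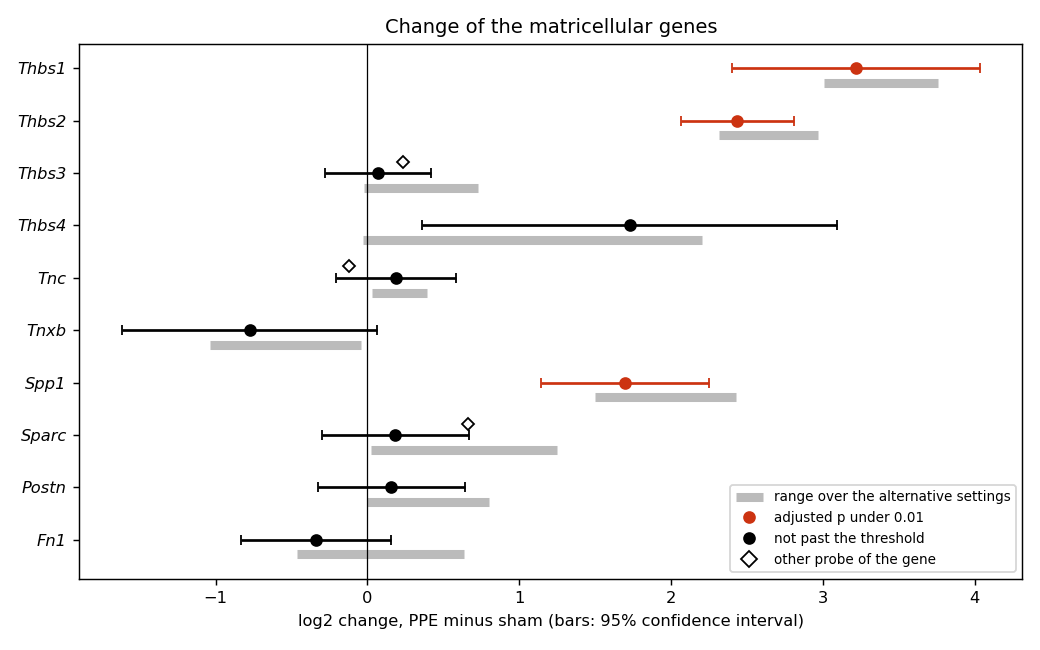
Log2 change, PPE minus sham (x axis), of the 10 genes with the 95% confidence interval as bars, in red where the adjusted p was under 0.01, with other probes of a gene as diamonds and grey bands for the range over the alternative settings. The intervals of Thbs1, Thbs2 and Spp1 lie above 1, from 2.40, 2.06 and 1.14 upwards, and the grey bands of Thbs3, Thbs4, Postn and Fn1 include 0.

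The pattern of each gene over the arrays was set beside those of all other names with a RefSeq match that were above background on all 10 arrays, by the root mean square difference of log2 ratios after taking away each gene's sham mean. Nearest to Thbs1 were Gdpd2 (0.51) and Cxcl12 (0.54), a chemokine, with changes of 3.19 and 3.35. Nearest to Thbs2 were Cdh11 (0.24), a cadherin of mesenchymal cells, and Dclk1 (0.24), with changes of 2.48 and 2.30. Spp1 lay nearest to Raet1e (0.21), a stress-induced ligand of a natural killer cell receptor, and Trip13 (0.25), with changes of 1.61 and 1.74. Thbs4 had no close match, the nearest being Cilp (0.60), a cartilage matrix gene, and Grrp1 (0.72). Near Tnxb lay Adamts8 (0.19), with a change of −0.71 that did not pass the test either (adjusted p = 0.131 by limma). The distances of the other genes ran from 0.11 for Thbs3 and BC019943 to 0.19 for Postn and Rab30. Thbs3 lay nearest to BC019943 and Orai3 (0.12), Tnc to Zfp414 (0.14) and Papd5 (0.15), Postn to Orai3 (0.18) and Rab30, Sparc to Gtf2h1 (0.13) and Pard6g (0.13), and Fn1 to Ptprs (0.17) and Zfp46 (0.18).

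Other genes of the same families were called in both directions, as were all names (13.8% higher and 9.96% lower). Of 11 listed, 10 were tested (Spock3 was below the filter), 2 were higher and 2 were lower, with a median change of −0.12. Tnn, tenascin W, was below background on all 5 sham arrays and rose by a fitted 2.52 on the log2 ratio scale (5.72-fold, adjusted p = 5.28e-06 by limma). In the aortic channel alone, with a floor set under the dim sham signal, it was 6.60-fold higher. That is another measure than the fitted ratio, and the dim sham signal leaves the size uncertain. It passed the filter only through the PPE arrays, and its p-value is not taken as support. Fstl1, a secreted glycoprotein with a SPARC-like domain, rose by 0.89 (adjusted p = 0.00345). That call did not pass without sham 4 or without PPE 3. Smoc1 and Sparcl1, which share the calcium-binding domain of SPARC, fell by 1.87 (adjusted p = 0.000185) and by 1.07 (adjusted p = 0.00553). Sparcl1 passed the threshold in 3 of the 10 fits that left out 1 array, those without sham 3, sham 5 or PPE 2, and Smoc1 passed in all 10. Comp, the pentameric relative of Thbs3 and Thbs4, differed by 0.10 (adjusted p = 0.848), and Tnr by −0.41 (adjusted p = 0.0981).

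Receptors of these proteins were measured for 16 of the 18 genes listed, Itgb6 and Itgb8 being below the filter. Of the 16, 4 were higher, 4 were lower and 8 did not pass the test, with a median change of −0.03. The shares over all names were 13.8% higher and 9.96% lower. Cd44, which binds osteopontin and hyaluronan, rose by 2.46 (5.51-fold, adjusted p = 1.44e-05), Itga4, an integrin chain that binds osteopontin and fibronectin, by 2.13 (adjusted p = 5.55e-06), Sdc1, a heparan sulphate proteoglycan, by 1.47 (adjusted p = 3.6e-06) and Cd47, a thrombospondin receptor, by 1.44 (adjusted p = 2.73e-05). Each of these 4 was called in all 10 fits that left out 1 array. Itga8, the integrin chain of smooth muscle that binds osteopontin, tenascin C and fibronectin, fell by 1.55 (adjusted p = 0.00814), and Cacna2d1, a calcium channel subunit that binds thrombospondins, by 1.28 (adjusted p = 0.000232). Cd36, the scavenger receptor for Thbs1, and Itgb3 fell by 1.17 (adjusted p = 0.00815) and by 0.66 (adjusted p = 0.00943). Of these lower calls, Cacna2d1 passed in all 10 fits that left out 1 array, Itgb3 in 3, and Itga8 and Cd36 in 2 each. Itgav and Itgb1, chains that several receptors for these ligands share, differed by 0.04 and −0.10 (adjusted p = 0.851 and 0.663).

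Enzymes that cut or crosslink these proteins were tested for 11 of the 12 genes listed, Mmp7 being below the filter. Of these, 8 were higher and 1 was lower, with a median change of 1.64, beside 13.8% higher and 9.96% lower over all names. Among the 8, Mmp12 and the transglutaminase Tgm1, whose change was the median, were above background on 0 and 2 of 5 sham arrays. With signal required on all 10 arrays, 5 enzymes were higher, beside 2424 of 15261 names. Mmp3, a stromelysin known to cleave osteopontin and fibronectin, rose by 3.05 (8.29-fold, adjusted p = 1.77e-06). Adamts4, an aggrecanase, was above background on 3 of 5 sham arrays and rose by 2.87 (adjusted p = 1.35e-05). Lox, which crosslinks collagen and elastin, rose by 2.08 (adjusted p = 7.48e-06). Mmp12, the macrophage elastase, was below background on all 5 sham arrays (adjusted p = 0.000719 for the fitted ratio). In the aortic channel, with the same floor as for Tnn, it was 4.29-fold higher in PPE, a size that the dim sham signal leaves uncertain. Like Tnn, it passed the filter only through the PPE arrays, and its p-value is not taken as support. Mmp9 was called higher by 1.85 (adjusted p = 0.00354), and this did not hold without sham 1, sham 2 or sham 4. Adamts1, a protease that cuts Thbs1, fell by 1.72 (adjusted p = 0.000599). The transglutaminase Tgm2 differed by −0.55 (adjusted p = 0.0184). Adjusted p-values in these lists are from the same limma fit over all names. With median centring, 2 of these enzymes were called higher and none lower, and no receptor or other family gene was called.

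**Figure D4:**
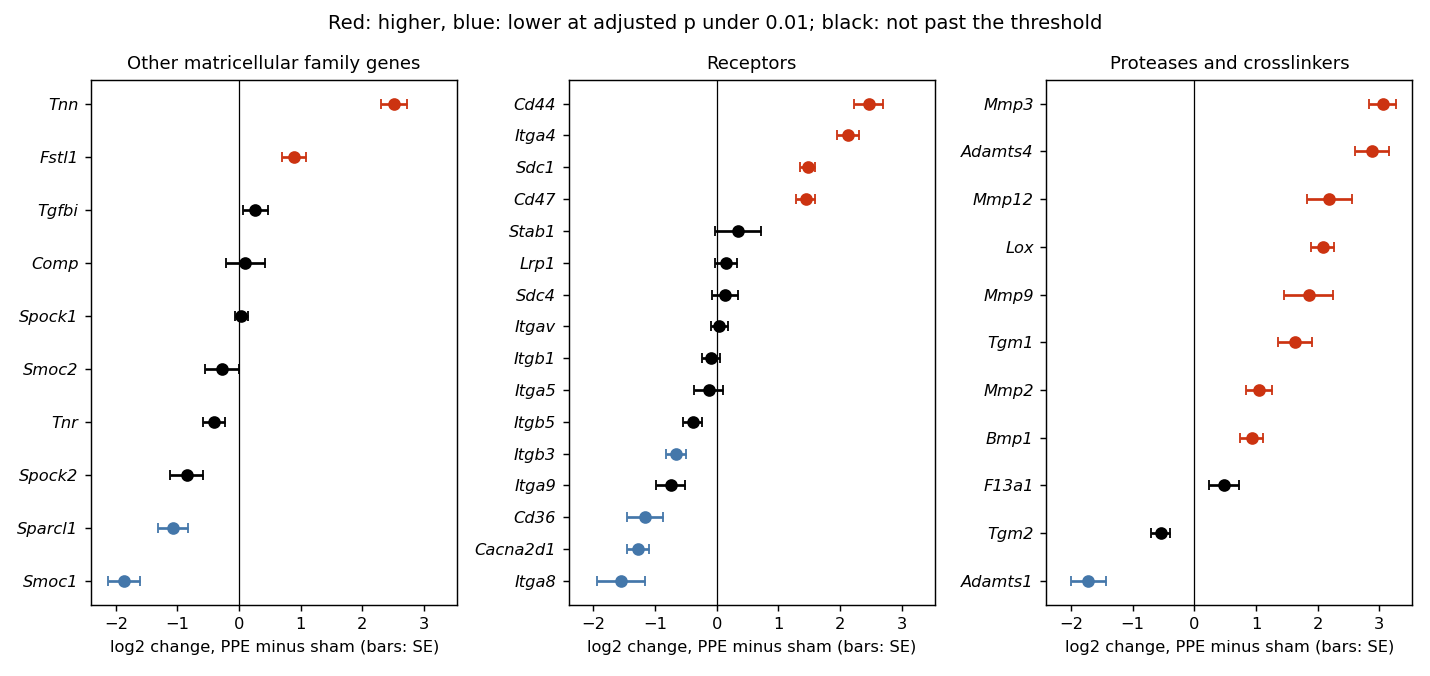
Log2 change, PPE minus sham (x axis), with its SE, for the tested genes of 3 lists: other matricellular family genes, receptors, and proteases and crosslinkers. Red points are higher and blue points lower at an adjusted p under 0.01. Higher were 8 of 11 proteases and crosslinkers, 4 of 16 receptors, 2 of 10 family genes and 13.8% of all names. The 8 include Mmp12 and the 2 include Tnn, which were below background on every sham array and passed the filter only through PPE.

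The means of the macrophage, smooth muscle contraction and fibroblast lists separated the groups, and the means of the other lists overlapped. The counts below stand beside 13.8% higher and 9.96% lower over all names. Of 10 macrophage genes, 8 were higher, and their mean log2 ratio was 0.70 to 1.36 in sham and 2.78 to 3.81 in PPE. Of 10 smooth muscle contraction genes, 8 were lower, with a mean of 3.69 to 4.71 in sham and 1.93 to 3.09 in PPE. Of 10 fibroblast genes, 6 were higher, with a mean of 2.57 to 3.08 in sham and 3.24 to 4.28 in PPE. The fibroblast genes did not rise together. Dcn, Dpt and Pi16 differed by −0.25, −0.003 and −0.53 (adjusted p = 0.512, 0.995 and 0.193 by limma). Lum differed by 1.22 (adjusted p = 0.0116 by limma), and the genes called higher included the collagen chains Col1a1, Col1a2 and Col3a1. None of 8 endothelial, 7 platelet or 6 adipocyte genes passed the test, by limma at an adjusted p under 0.01. The platelet mean, of interest because platelets hold much thrombospondin protein, read 2.16, 0.09, 1.13, 0.18 and 0.75 in sham replicates 1 to 5 and 1.297, 0.03, 0.23, 2.26 and 0.00356 in PPE replicates 1 to 5. Of the PPE arrays, 1 and 4 were high for both the platelet mean and Thbs1, 2 and 5 were low for both, and PPE 3 was high for Thbs1 alone. Within sham, sham 1 was the highest for both, and sham 3 was high for the platelet mean alone. Between the groups, sham 1 had a platelet mean of 2.16 with Thbs1 at −0.96, against 2.26 and 2.57 in PPE 4. PPE 5, lowest in the platelet mean, lay above every sham array for Thbs1. The part of platelets in the Thbs1 values was not tested. Of 5 tendon genes 1 was lower, of 7 skeletal muscle genes 1 was lower (Mylpf was below the filter), and of 5 Schwann cell genes 1 was higher. The part of macrophages, fibroblasts and smooth muscle in the Thbs1, Thbs2 and Spp1 changes was not tested. Red signal was well above background on 37.6% (sham 5) to 65.8% (PPE 1) of spots. Without sham 5 and PPE 5, an alternative chosen after seeing the data, the same number of 3 genes was called, and Thbs1 exceeded Thbs3 by 3.43 and Thbs2 exceeded Thbs3 by 2.33. With 4 arrays per group these differences had an adjusted p of 0.1 each by the exact test. Both had the smallest unadjusted p that this test allows with 4 arrays per group, so the value does not show that they weakened.

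**Figure D5:**
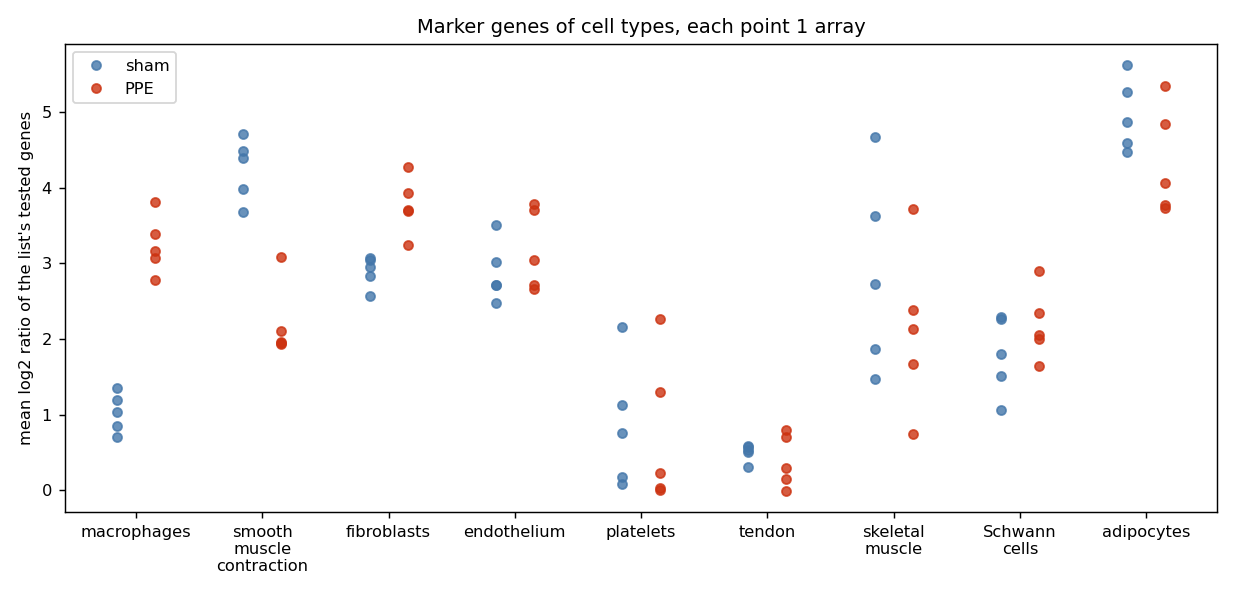
Mean log2 ratio of aorta over reference (y axis) of the tested genes of 9 marker lists, each point 1 array, sham in blue and PPE in red (n = 5 per group). Macrophage, smooth muscle and fibroblast means separate the groups, with macrophages at 0.70 to 1.36 in sham and 2.78 to 3.81 in PPE, and the other lists overlap.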

How the data were processed

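Each array compared infrarenal aortic RNA of 1 mouse (500 ng, Cy5) with a universal mouse reference (Cy3), with no dye swap. Spots were extracted by the authors with Agilent Feature Extraction (version 10.7.3.1). The deposited mean signal and median local background of a spot are linear intensity values. A log10 ratio, the LogRatio of aorta over reference, was deposited too and was converted to log2 here for an alternative. The log2 values of the authors' processed table matched, within 1e-04 on 100% of spots, the log2 quotient of the 2 processed channel signals. Per the study's methods, arrays of poor quality and outliers were removed by the authors; which ones is not stated. Positions are those of the array files (mm9). Exon and UTR annotation on that build was not used here.

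With limma 3.58.1 in R 4.3.3, signals were background-corrected (normexp, offset 50) and normalized by loess within each array, with control spots and 176 to 331 outlier-flagged spots per array given no weight and then left out. The offset draws ratios of dim probes towards 0. A gene name was tested where at least 5 of the 10 arrays had aortic signal well above background, and was represented by its brightest tested probe. Groups came from the sample labels and were compared by lmFit and eBayes, two-sided and unpaired, with Benjamini-Hochberg adjustment over 22520 names. The threshold of 0.01 follows the study's false discovery rate, but the study's test (SAM) was not run here. Pairs were compared by exact permutation tests adjusted over 7 pairs at 0.05. For a gene below background throughout a group, a fold of the aortic channel is given with a floor on the dim side. On each array the dim side was set to the lowest signal well above background, or to the gene's own signal where that was higher. The floor is that of the array's dimmest such probe, so the fold is not a strict minimum. Channel values after loess and Aquantile were used. Of the names tested, 15940 matched RefSeq (GRCm38.p6, used for names only). The fit and the exact test were tested on simulated data.

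The 10 genes and all lists were chosen with earlier results of these data known. Named besides the 10 are, per list, up to 4 called increases and 2 called decreases by size, and for each of the 10 the 2 names of most similar pattern. One gene that met this rule is not reported here. Any other gene was chosen after its values were seen. Alternatives covered normalization, filter, probe choice, slide, scan day, replicate number and left-out arrays (24 in all, of which 3 were chosen after seeing the data). The number of arrays limits the precision. Deviations of same-numbered sham and PPE arrays correlated between −0.30 and 0.52, below 0 for replicates 2 and 4, so the numbers were not taken to pair the arrays.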

Additional observations from a re-analysis of the deposited data

Results flagged for a closer look

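Values of 88 groups of 5 arrays (genes named in the text, differences within families and means of the gene lists) were searched for an array far from the other 4, and 4 stood apart, while chance alone flags about 1 group in 20. None was a group of the 10 matricellular genes themselves. Cd44 in sham 1 was −2.95, and the nearest other sham array was at −2.63. Smoc1 in sham 3 was 2.82, below the next sham array at 3.75. Smoc1 in PPE 2 was 2.58, above the next PPE array at 1.69. The mean of the smooth muscle contraction genes in PPE 2 was 3.09, above the next PPE array at 2.11. PPE 2 was also the PPE array with the lowest Thbs1, Thbs2 and Spp1 ratios (0.74, 0.56 and −1.76). It had the highest fibroblast mean of the PPE arrays (4.28), and its macrophage mean of 3.385 was below only that of PPE 1 (3.81).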

How the results depend on the processing

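Over 24 alternatives, Thbs1 and Thbs2 stayed called in all and Spp1 in all but median centring in place of loess. There Spp1 was 2.43 (adjusted p = 0.0126 by limma) and 2 of the 10 genes were called. Aquantile after loess, counted among the alternatives, leaves the log ratios unchanged and so is no check of the calls. The scanner's LogRatio and the series matrix gave the same changes for the 10 genes and are not separate checks. Both changes of the filter, and averaging the tested probes, left the changes of Thbs1, Thbs2 and Spp1 as in the main fit. These settings altered only their standard errors and adjusted p-values. Median centring moved the median of all names from 0.02 to 0.41. Relative to that median, Thbs1, Thbs2 and Spp1 changed by 3.35, 2.56 and 2.02. It called 408 names higher and 8 lower, against 3116 and 2243, so that 98.1% of calls were higher against 58.1%. In the lists it called 2 proteases and crosslinkers higher and 0 lower, and 0 receptors and 0 family genes in either direction. Fn1 then read 0.64 in place of −0.34. The cause was not tested.

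With the scanner's LogRatio or the series matrix, Thbs3 read −0.0261, Thbs4 −0.0295 and the Thbs3 minus Thbs4 difference 0.00335. With slide as a fixed block Postn read −0.00078 and 1 family gene was higher. Thbs3, Thbs4 and Postn were called in neither direction there. Requiring signal on all 10 arrays left 15261 names, among them neither Thbs4 nor Tnc, so no pair was tested there, and called 1 family gene and 5 proteases higher. With no filter on dim probes, 1 receptor was lower. With slide as a random block, 2 proteases were lower.

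The replicate numbers share only a number (1 of 5 sham arrays correlated best with its own number). With the replicate block, 3022 names were higher and 2283 lower, 2 proteases were lower, and 3 of the 10 genes were higher.

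Leaving out 1 array gave 2512 to 3615 names higher and 1754 to 2352 lower, 3 of the 10 genes higher each time, 1 to 2 family genes higher and 1 to 2 lower, 1 to 4 receptors lower and 1 to 2 proteases lower. Thbs3 ranged from −0.0201 (without sham 3, and −0.0164 without PPE 1) to 0.19, and Thbs3 minus Thbs4 from −2.09 to −1.24. The log2 change of Thbs1 ranged from 3.004 to 3.50, of Thbs2 from 2.32 to 2.53 and of Spp1 from 1.50 to 1.81.

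Of alternatives chosen after seeing the data, leaving out sham 5 and PPE 5 gave 2 receptors and 2 proteases lower, with Thbs1 minus Thbs3 at 3.43 and Thbs2 minus Thbs3 at 2.33 (adjusted p = 0.1 each by the exact test). Slides 1 and 2 alone gave 1 family gene higher, 1 lower and 1 receptor lower, with these differences at 3.19 and 2.32 (adjusted p = 0.0667 each by the exact test). In both settings fewer arrays leave fewer relabellings, and these differences had the smallest unadjusted p then possible. These p-values therefore do not show that the differences weakened. Dim signal limits Thbs4 and Tnc, each with 1 sham array not above background for the probe that represents it.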
